A study of Homo sapiens with 12 samples.

Results

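The genes described here are *GCLM* and 8 further genes of the NRF2 antioxidant response (*GCLC*, *GSR*, *HMOX1*, *NQO1*, *TXNRD1*, *TXN*, *SRXN1* and *NFE2L2*), which were found by name among the 45416 genes of the expression table. All 9 were present and all 9 passed the filter on low values. *GCLM* was chosen by its fall with 1 of the siRNAs, siPDL1-2. Its comparisons that include siPDL1-2 libraries are therefore given as a description with no test. The other 8 were added for their known roles, but with earlier results of these data known. The cells were U251, an established human glioblastoma line, transfected with a control siRNA (siNC) or with 1 of 2 siRNAs against *PD-L1* (siPDL1-1 and siPDL1-2), and were either left unstimulated or given IFNγ at 100 U/ml for 24 h, starting 48 h after transfection. There were 12 libraries of polyadenylated RNA, 2 for each of the 6 groups, and no untransfected cells are among them. All groups shared the unmodified U251 genotype and a transfection. The study's methods describe independent experiments, but the labels do not tie each library to one of them. In bulk RNA, fewer cells carrying a transcript and less transcript per cell cannot be told apart.

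NRF2, encoded by *NFE2L2*, is a transcription factor that KEAP1 marks for degradation in resting cells. Oxidants and electrophiles modify KEAP1, NRF2 then accumulates, pairs with a small MAF protein and binds antioxidant response elements near its target genes, where BACH1 competes for the same sites. The targets make and recycle glutathione (*GCLC*, *GCLM*, *GSR*), run the thioredoxin system (*TXN*, *TXNRD1*, *SRXN1*), reduce quinones (*NQO1*) and break down heme (*HMOX1*). NRF2 is regulated largely at the level of the protein, which was not measured here.

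Between 17101069 and 55657393 reads were counted on genes in a library. Values are in CPM (normalized by the authors), and 1 read corresponded to between 0.0187 and 0.0586 CPM. The targeted transcript *CD274*, which encodes PD-L1, was at 4.60 and 4.91 CPM in unstimulated siNC, 2.67 and 2.73 CPM in siPDL1-1 and 3.57 and 3.45 CPM in siPDL1-2. After IFNγ it was at 71.2 and 76.0 CPM in siNC, 60.9 and 66.7 CPM in siPDL1-1 and 37.5 and 35.0 CPM in siPDL1-2. It was therefore lower with both siRNAs in every library, but siPDL1-1 after IFNγ differed from siNC by only -0.20 on the log2 scale (FDR = 0.050). All 8 glioma and astrocyte markers examined passed the filter (summed level between 3945 and 4863 CPM), but *GFAP*, *S100B* and *CHI3L1* averaged only 4.38, 3.70 and 2.71 CPM. Of 8 leukocyte markers, 7 were under 1 CPM in every library (summed level between 0.800 and 2.03 CPM). The 8 endothelial and neuronal markers summed to between 10.0 and 16.5 CPM, with 3 under 1 CPM in every library. Among them *SLC17A7* and *VWF* averaged 4.96 and 2.79 CPM, levels like those of the low astrocyte markers. Type I interferon-response genes moved with siPDL1-1. The summed level of 15 of them was 535 to 564 CPM in siNC, 601 to 633 CPM in siPDL1-2 and 5104 to 5190 CPM in siPDL1-1 after IFNγ, and 89.5 to 91.8, 81.2 to 82.2 and 151 to 153 CPM in the same order without it. Their part in the results below was not tested.

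The core of the antioxidant response element, the letters TGACNNNGC on either strand, was searched for in RefSeq promoters of GRCh38.p14, which span 250 bases before to 50 bases after a gene's start. A promoter was given for 7 of the 9 genes, all but *HMOX1* and *GSR*. The core was present in a promoter of 2 of the 7 genes, *GCLM* and *TXNRD1*. Counted by promoter rather than by gene, 13.3% of all 35116 promoters of the same length held it. On that unit, the 7 genes had 9 promoters, and those holding the core were the promoter of *GCLM* and both promoters of *TXNRD1*. Promoters of *GCLM* and *TXNRD1* are shown because they hold the letters through which NRF2 is known to bind, with the matches in capitals. They are the *GCLM* window at chr1:93909401-93909550 on the minus strand, whose match starts 34 bases before the start site, and the *TXNRD1* window at chr12:104215659-104215808 on the plus strand, whose matches start 99 and 8 bases before it.
GCLM: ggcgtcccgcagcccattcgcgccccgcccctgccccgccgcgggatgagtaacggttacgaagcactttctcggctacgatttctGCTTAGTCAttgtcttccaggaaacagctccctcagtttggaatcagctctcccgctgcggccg
TXNRD1: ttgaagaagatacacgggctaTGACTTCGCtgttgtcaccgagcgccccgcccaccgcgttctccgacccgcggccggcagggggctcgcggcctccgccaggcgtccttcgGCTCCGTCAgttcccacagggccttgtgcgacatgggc
A second promoter of *TXNRD1* held 1 further match. A match describes these letters only and is not a binding site, and the windows do not cover enhancers farther away.

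The genes differed widely in level. Per kilobase of exon, which allows genes to be set side by side, unstimulated siNC cells held 223 CPM of *TXN*, 175 of *NQO1*, 81.9 of *SRXN1*, 71.5 of *TXNRD1*, 30.6 of *GSR*, 22.1 of *HMOX1*, 18.0 of *GCLM*, 12.5 of *GCLC* and 4.72 of *NFE2L2*. No pair of neighbours in this order overlapped between the 2 libraries. Exon lengths are those of GENCODE v44, which places *NFE2L2* differently from the table, so its value per kilobase is less certain. In GRCh38 coordinates of the table, *GCLM* (ENSG00000023909) lies on the minus strand of chromosome 1 from 93885199 to 93909456 and *GCLC* (ENSG00000001084) on the minus strand of chromosome 6 from 53497341 to 53616970. Reads were counted without regard to strand. The genes overlapping a member were each at a mean of under 1 CPM, except AC019080.1, which shares the strand of *NFE2L2* and had a mean of 5.54 CPM against 85.5 CPM for *NFE2L2*. *TXN* has near-identical processed copies elsewhere in the genome with which its reads could have been shared.

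*GCLM* encodes the modifier subunit of glutamate-cysteine ligase, which makes the catalytic subunit work at physiological glutamate levels. It was at 96.0 and 99.8 CPM in unstimulated siNC cells, 90.0 and 87.4 CPM with siPDL1-1 and 75.6 and 82.8 CPM with siPDL1-2. With IFNγ the values were 171 and 182 CPM with siNC, 114 and 141 CPM with siPDL1-1 and 94.5 and 94.5 CPM with siPDL1-2. The order of the group means was thus siNC with IFNγ, siPDL1-1 with IFNγ, unstimulated siNC, siPDL1-2 with IFNγ, unstimulated siPDL1-1 and unstimulated siPDL1-2. No neighbours in this order overlapped, but unstimulated siNC (97.9 ± 2.66 CPM, SD, n = 2) and siPDL1-2 with IFNγ (94.5 ± 0.0197 CPM, SD, n = 2) differed by little more than the spread. The siPDL1-1 libraries after IFNγ stood farthest apart from each other (128 ± 19.2 CPM, SD, n = 2). On the log2 scale, *GCLM* was lower with siPDL1-2 by -0.30 in unstimulated cells and by -0.89 after IFNγ, the difference for which it was selected. With siPDL1-1 it differed from siNC by -0.14 (95% interval -0.31 to 0.032, FDR = 0.218) in unstimulated cells and fell by 0.47 after IFNγ (SE 0.079, FDR = 5.2e-04), which is less than 1.5-fold. Both of these comparisons use siNC libraries that also served in choosing the gene. The difference after IFNγ was -0.62, past 1.5-fold, without siPDL1-1 replicate 2.

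**Figure D1:**
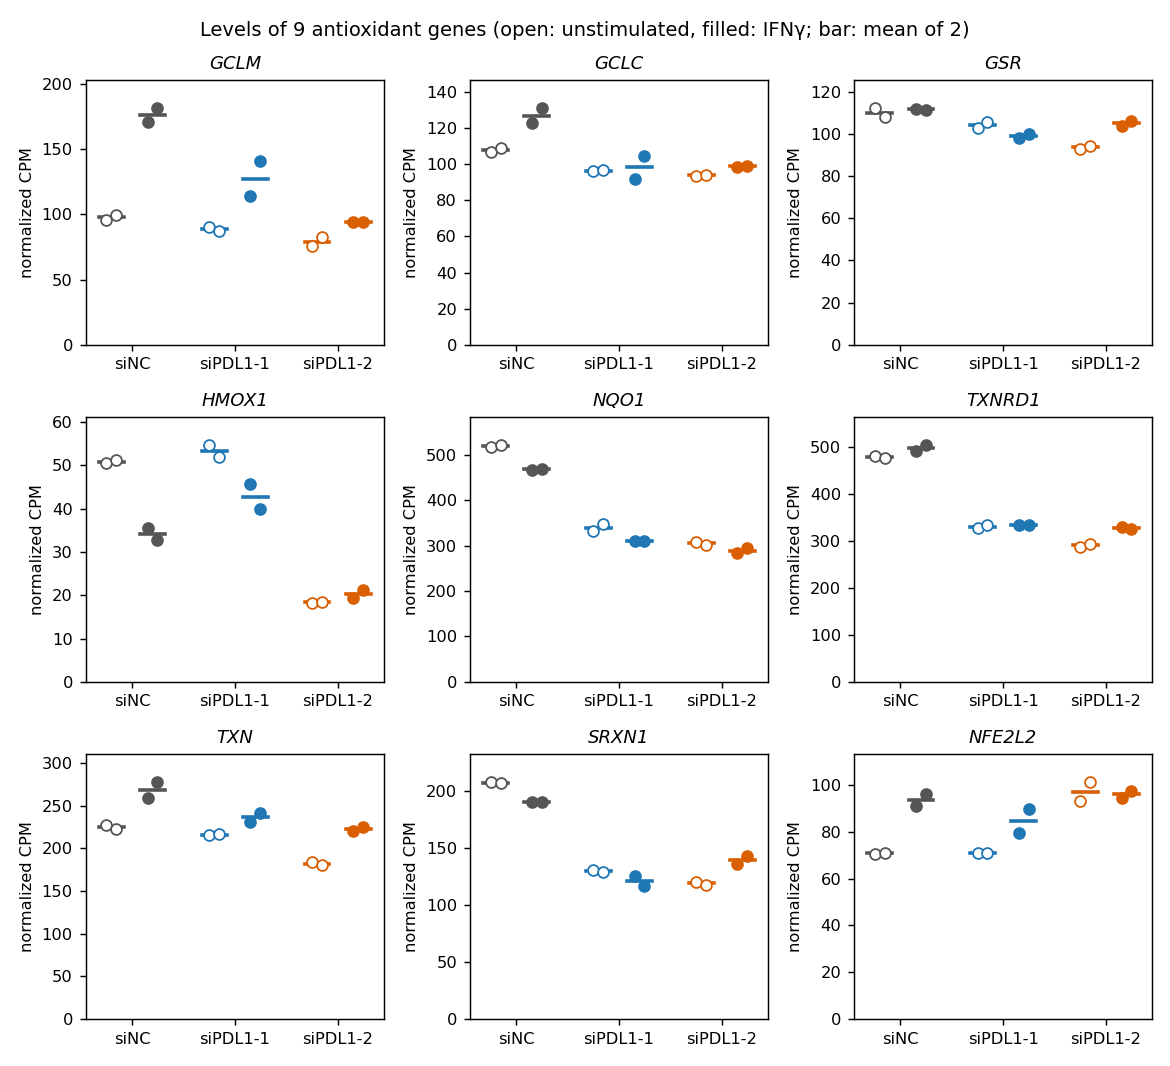
Normalized CPM (y axes, starting at 0) of the 9 genes in all 12 libraries, by siRNA (x axes), with open points for unstimulated and filled points for IFNγ-treated libraries and a bar at the mean of 2. *GCLM* after IFNγ is highest with siNC (171 and 182 CPM), whereas *HMOX1* is lowest in all 4 siPDL1-2 libraries (18.2 to 21.2 CPM).

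*GCLC* encodes the catalytic subunit of the same ligase. In unstimulated cells it was at 107 and 109 CPM with siNC, 96.1 and 96.8 CPM with siPDL1-1 and 93.5 and 94.3 CPM with siPDL1-2. IFNγ-treated cells held 123 and 131 CPM with siNC, 92.0 and 105 CPM with siPDL1-1 and 98.5 and 99.2 CPM with siPDL1-2. All libraries of both PD-L1 siRNAs were below those of siNC in the same condition. The log2 differences after IFNγ were -0.37 with siPDL1-1 (SE 0.055, FDR = 9.9e-05) and -0.36 with siPDL1-2 (FDR = 2.2e-04), and in unstimulated cells -0.16 (FDR = 0.040) and -0.20 (FDR = 0.0094). None reached 1.5-fold.

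*GSR*, the reductase that returns oxidized glutathione to its reduced form, was the steadiest of the 3 glutathione genes. It was at 112 and 108 CPM with siNC, 103 and 106 CPM with siPDL1-1 and 93.2 and 94.6 CPM with siPDL1-2 in unstimulated cells. After IFNγ the values were 112 and 111 CPM, 98.2 and 100.3 CPM, and 104 and 106 CPM in the same order. It was lower with siPDL1-2 in unstimulated cells (log2 difference -0.23, FDR = 5.7e-04) and with siPDL1-1 after IFNγ (-0.17, FDR = 0.0057), each by less than 1.5-fold. For the 2 remaining comparisons with siNC the FDR was 0.197 and 0.142.

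In the thioredoxin system, *TXNRD1* had larger differences from siNC than *TXN*. *TXNRD1*, which reduces thioredoxin with NADPH, was at 482 and 478 CPM with siNC, 328 and 333 CPM with siPDL1-1 and 288 and 293 CPM with siPDL1-2 in unstimulated cells. In IFNγ-treated cells it was at 492 and 504 CPM, 335 and 333 CPM, and 330 and 326 CPM in the same order. The groups of each PD-L1 siRNA did not overlap siNC. With siPDL1-2 it fell by 0.72 on the log2 scale in unstimulated cells (SE 0.034, FDR = 2.4e-09) and by 0.60 after IFNγ (FDR = 2.3e-08). With siPDL1-1 it fell by 0.54 (FDR = 4.1e-08) and 0.58 (FDR = 8.3e-09), in both cases just short of 1.5-fold. Without siNC replicate 1 the latter was -0.59, past that threshold. *TXN*, thioredoxin itself, was at 227 and 222 CPM with siNC, 215 and 217 CPM with siPDL1-1 and 184 and 181 CPM with siPDL1-2 in unstimulated cells, and at 259 and 277, 231 and 242, and 220 and 225 CPM after IFNγ. Its largest difference from siNC was a log2 fold change of -0.30 with siPDL1-2 in unstimulated cells (FDR = 5.1e-05).

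*SRXN1*, sulfiredoxin, repairs overoxidized peroxiredoxins. It was at 207 and 207 CPM with siNC, 130 and 128 CPM with siPDL1-1 and 120 and 117 CPM with siPDL1-2 in unstimulated cells. After IFNγ it was at 190 and 190 CPM with siNC, 126 and 116 CPM with siPDL1-1 and 136 and 143 CPM with siPDL1-2. Both siRNAs gave levels below siNC in all libraries. The gene fell with siPDL1-1 by 0.68 (SE 0.045, FDR = 6.0e-08) and by 0.65 after IFNγ (FDR = 4.1e-08), and with siPDL1-2 by 0.80 (FDR = 1.0e-08) and by 0.44 (FDR = 5.8e-06), the last of which is under 1.5-fold.

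*NQO1* encodes a quinone reductase and is often used as a readout of NRF2. It was at 517 and 521 CPM with siNC, 332 and 347 CPM with siPDL1-1 and 308 and 302 CPM with siPDL1-2 in unstimulated cells. After IFNγ it was at 467 and 470 CPM with siNC, 309 and 311 CPM with siPDL1-1 and 284 and 294 CPM with siPDL1-2. It fell past both thresholds in all 4 comparisons with siNC. The log2 decreases were 0.61 with siPDL1-1 (SE 0.037, FDR = 2.2e-08) and 0.77 with siPDL1-2 (FDR = 2.6e-09) in unstimulated cells, and 0.59 (FDR = 1.2e-08) and 0.70 (FDR = 1.1e-08) after IFNγ. The 2 siPDL1-1 values lie close to the 1.5-fold threshold, and both calls can be lost. The unstimulated value was -0.58 without siPDL1-1 replicate 1, and the value after IFNγ was -0.58 with DESeq2's size factors and with its Wald test.

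*HMOX1*, which encodes the inducible heme oxygenase, separated the 2 siRNAs. It was at 50.5 and 51.2 CPM with siNC, 54.7 and 51.9 CPM with siPDL1-1 and 18.2 and 18.5 CPM with siPDL1-2 in unstimulated cells. After IFNγ it was at 35.6 and 32.7 CPM with siNC, 45.7 and 39.9 CPM with siPDL1-1 and 19.4 and 21.2 CPM with siPDL1-2. All siPDL1-2 libraries were below all others. With siPDL1-2 *HMOX1* fell by 1.42 on the log2 scale in unstimulated cells (2.68-fold, SE 0.071, FDR = 3.7e-09) and by 0.72 after IFNγ (FDR = 4.7e-06). With siPDL1-1 the difference was 0.065 in unstimulated cells (95% interval -0.087 to 0.22, FDR = 0.550), and it rose by 0.31 after IFNγ (FDR = 0.0029), by less than 1.5-fold.

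*NFE2L2* itself was not lower at FDR < 0.01 in any of the 4 comparisons with siNC when all libraries were used. It was at 70.6 and 71.0 CPM with siNC, 71.0 and 70.9 CPM with siPDL1-1 and 93.2 and 101 CPM with siPDL1-2 in unstimulated cells. IFNγ-treated cells held 90.9 and 96.2 CPM with siNC, 79.4 and 89.8 CPM with siPDL1-1 and 94.5 and 97.5 CPM with siPDL1-2. It was higher with siPDL1-2 than with siNC in unstimulated cells (log2 difference 0.45, SE 0.059, FDR = 3.0e-05, below 1.5-fold). After IFNγ the difference was 0.037 (95% interval -0.089 to 0.16, FDR = 0.686). With siPDL1-1 the values were 0.0034 (FDR = 0.978) and -0.15 (FDR = 0.069). The last was -0.058 without IFNγ-treated siPDL1-1 replicate 1 and -0.23 without replicate 2, where its FDR was 0.0044 (0.0044 to 0.489 over the alternatives).

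Each PD-L1 siRNA was compared with siNC to ask which genes differ between cells given that siRNA and cells given the control siRNA. *CD274* was lower with both siRNAs in both conditions, but with siPDL1-1 after IFNγ by only -0.20 on the log2 scale (FDR = 0.050, limma). Whether the differences below follow from less *PD-L1* transcript or from other effects of each siRNA was not tested. A gene was called at FDR < 0.01 over the 17982 genes tested together with a fold change > 1.5. In unstimulated cells, 2 of 9 members fell with siPDL1-1 (*NQO1* and *SRXN1*), where 1.45% of all genes tested were called lower. With siPDL1-2, 4 of the 8 members tested fell (*HMOX1*, *NQO1*, *TXNRD1* and *SRXN1*), against 1.33% of all genes. After IFNγ, 2 of 9 fell with siPDL1-1 (*NQO1* and *SRXN1*, against 1.75% of all genes) and 3 of 8 with siPDL1-2 (*HMOX1*, *NQO1* and *TXNRD1*, against 1.20%). No member was called higher. With siPDL1-1 and siPDL1-2, 2.55% and 4.84% of all genes were in unstimulated cells, and 3.73% and 1.92% after IFNγ. *NFE2L2* rose by the FDR alone with siPDL1-2 in unstimulated cells, where 2960 of the 17982 genes did. *HMOX1* rose by the same measure with siPDL1-1 after IFNγ, where 2082 did. By the FDR alone, the members that fell numbered 3 of 9 and 7 of 8 in unstimulated cells, against 8.99% and 11.9% of all genes for siPDL1-1 and siPDL1-2, and 7 of 9 and 6 of 8 after IFNγ, against 12.2% and 9.75%. The median log2 difference over the members tested was -0.14 with siPDL1-1 and -0.51 with siPDL1-2 in unstimulated cells and -0.37 and -0.40 after IFNγ, whereas the median over all genes lay between -0.0061 and 0.028. The siPDL1-1 counts and medians include *GCLM*, which was chosen with the same siNC libraries and is among the 7 of 9 after IFNγ. The 2 siRNAs were set against the same siNC libraries, so their differences are not independent of each other. The members were chosen with earlier results of these data known, so these counts and medians are not independent of that choice.

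**Figure D2:**
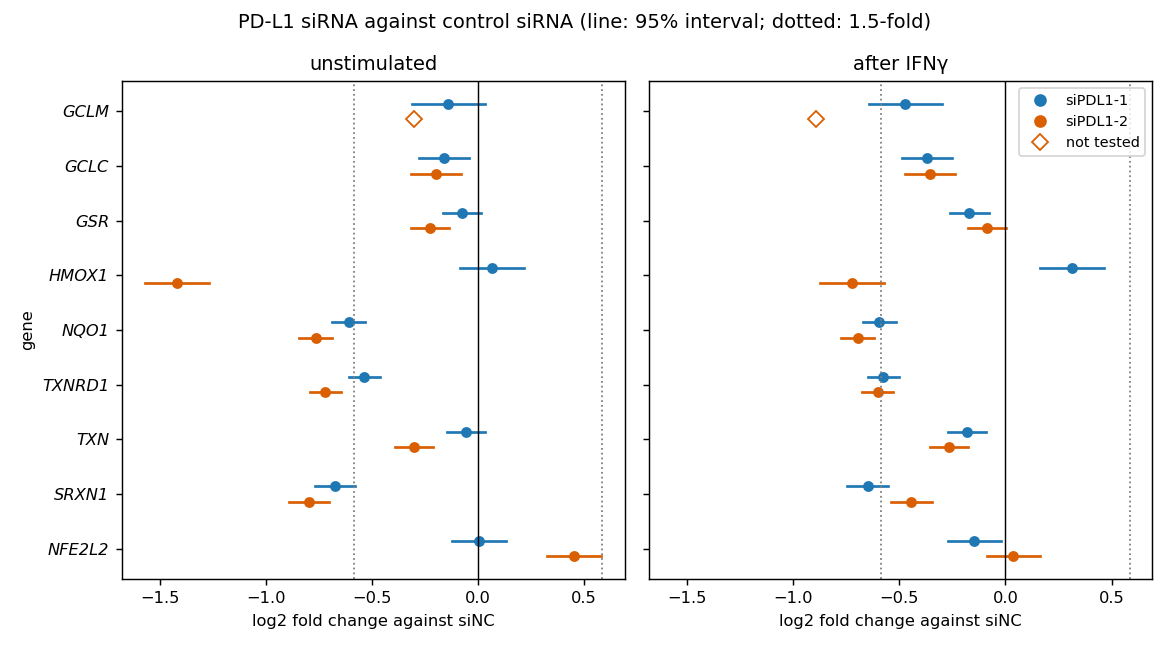
Log2 fold change against siNC (x axes) of the 9 genes (y axis) in unstimulated and IFNγ-treated cells, with 95% intervals from the limma fit as lines, dotted lines at 1.5-fold and open diamonds where no test was made. *NQO1*, *TXNRD1* and *SRXN1* lie to the left of 0 with both siRNAs (from -0.80 to -0.44), whereas *HMOX1* is at -1.42 with siPDL1-2 and 0.065 with siPDL1-1 in unstimulated cells.

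Set directly against each other, the 2 siRNAs differed in *HMOX1*. It was higher with siPDL1-1 than with siPDL1-2 by 1.48 on the log2 scale in unstimulated cells (2.80-fold, FDR = 6.3e-09) and by 1.04 after IFNγ (2.05-fold, FDR = 8.1e-08). This was the 1 member of 8 called higher in each case, where 0.884% and 1.79% of all genes were. By the FDR alone, 5 of 8 members differed in unstimulated cells (24.1% of all genes did), with *NQO1*, *TXNRD1*, *TXN* and *HMOX1* higher and *NFE2L2* lower with siPDL1-1, and 2 of 8 after IFNγ (10.5% of all genes), *HMOX1* higher and *SRXN1* lower. *GCLC* differed by 0.039 in unstimulated cells (95% interval -0.079 to 0.16) and by -0.011 after IFNγ (95% interval -0.13 to 0.11). *GCLM*, described without a test, was 0.16 higher with siPDL1-1 in unstimulated cells and 0.42 higher after IFNγ (0.57 and 0.27 without siPDL1-1 replicate 1 or 2).

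IFNγ was compared with no stimulation within each siRNA, to ask what the cytokine does in the presence of each. In siNC cells, *GCLM* rose by 0.84 on the log2 scale (1.79-fold, SE 0.079, FDR = 3.2e-06), in the siNC libraries that also served in choosing it. It was the 1 member of 9 called higher, where 6.67% of all genes tested were. In siPDL1-1 cells *GCLM* rose by 0.51 (FDR = 2.8e-04), less than 1.5-fold (0.66 and past it without IFNγ-treated siPDL1-1 replicate 1), and in siPDL1-2 cells, whose values chose it, the difference was 0.25, given without a test. No tested member was called in those 2 comparisons, where 6.87% and 5.27% of all genes were called in either direction. Before adjustment, limma placed 6 members in siPDL1-1 cells and 5 in siPDL1-2 cells under 0.05, and edgeR and DESeq2 called 0. By the FDR alone, 6 of 9 members changed in siNC cells (27.3% of all genes did). *GCLM*, *GCLC*, *TXN* and *NFE2L2* rose, the last by 0.40 (FDR = 8.0e-05), while *HMOX1* fell by 0.56 (FDR = 1.6e-05, and past 1.5-fold at -0.62 without IFNγ-treated siNC replicate 1 and at -0.60 to -0.61 with edgeR or DESeq2) and *NQO1* by 0.15 (FDR = 0.0045). In siPDL1-1 cells 3 of 9 changed by the same measure (22.9% of all genes), with *GCLM* and *NFE2L2* higher and *HMOX1* lower. In siPDL1-2 cells 4 of the 8 tested rose (9.57% of all genes), namely *GSR*, *TXNRD1*, *TXN* and *SRXN1*, by 0.16 to 0.29. The median log2 difference of the 9 members was 0.055, 0.015 and 0.16 with siNC, siPDL1-1 and siPDL1-2, against 0.0012, -0.016 and -0.015 over all genes.

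**Figure D3:**
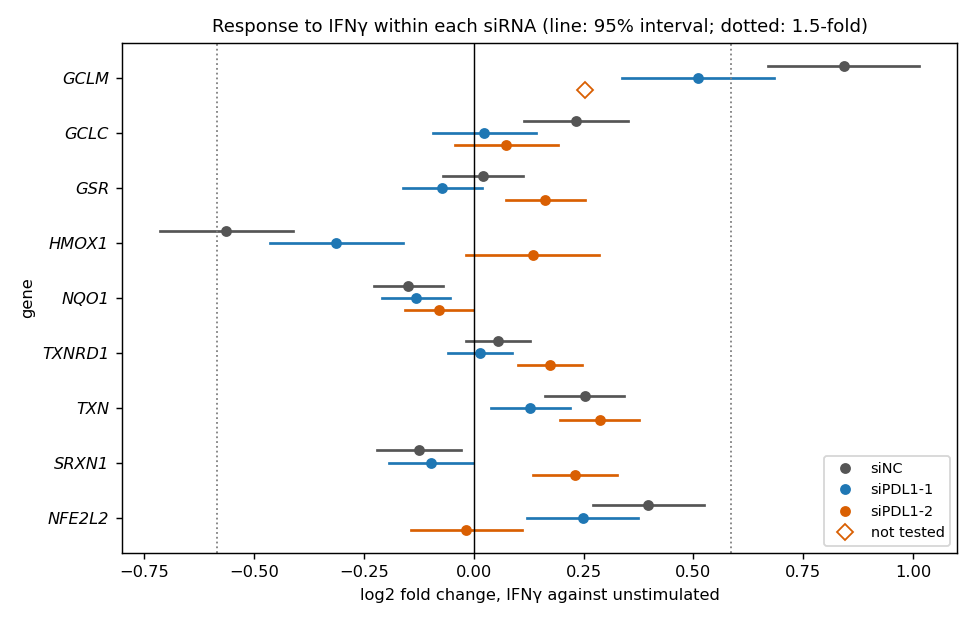
Log2 fold change with IFNγ (x axis) of the 9 genes (y axis) within siNC, siPDL1-1 and siPDL1-2 cells, with 95% intervals from the limma fit as lines, dotted lines at 1.5-fold and an open diamond where no test was made. *GCLM* is at 0.84, 0.51 and 0.25 and *HMOX1* at -0.56, -0.31 and 0.13 in that order of siRNAs.

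Whether the difference between a PD-L1 siRNA and siNC depended on IFNγ was tested as an interaction. With siPDL1-1, 0 of 9 members were called with limma, where 0.968% of all genes were. At an unadjusted p < 0.05 there were 3, and edgeR and DESeq2 called 0. *GCLM* had an interaction of -0.33 (95% interval -0.58 to -0.087, FDR = 0.167). This contrast contains the siNC libraries that also served in choosing *GCLM*, so it is not independent of that choice. The value was -0.18 without IFNγ-treated siPDL1-1 replicate 1 (FDR = 0.266) and -0.48 without replicate 2 (FDR = 8.8e-04), and the FDR ranged from 8.8e-04 to 0.451 over the alternatives. With siPDL1-2, 1 of 8 members was called higher, where 1.84% of all genes were. This was *HMOX1*, at 0.70 (SE 0.10, FDR = 2.0e-04), and its siPDL1-2 level stayed near 20 CPM while that of siNC decreased with IFNγ. By the FDR alone 3 of 8 changed (17.1% of all genes did), with *SRXN1* at 0.35 (FDR = 9.1e-04) and *NFE2L2* at -0.41 (FDR = 0.0020) besides *HMOX1*. The interaction of *GCLM* with siPDL1-2 was -0.59, given without a test.

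A further 79 genes in 7 lists, most of them of the NRF2 pathway, were examined for context, and 77 of them passed the filter. In unstimulated cells, 2 rose and 4 fell with siPDL1-1 and 2 rose and 9 fell with siPDL1-2. After IFNγ, 2 rose and 4 fell with siPDL1-1 and 2 rose and 5 fell with siPDL1-2. Over all genes tested, 2.55%, 4.84%, 3.73% and 1.92% were called higher and 1.45%, 1.33%, 1.75% and 1.20% lower in these comparisons, in the same order. The list of 4 superoxide and peroxide enzymes lies outside the NRF2 core. Its *SOD2* is among the genes that fell with siPDL1-1 in both conditions and with siPDL1-2 after IFNγ. Among 10 regulators and partners of NRF2, *BACH1*, the repressor at antioxidant response elements, rose with siPDL1-2 in unstimulated cells by 0.70 (15.0 and 15.5 CPM with siNC, 25.2 and 25.5 CPM with siPDL1-2, FDR = 2.1e-05). *MAFK*, a small MAF partner, fell with both siRNAs in unstimulated cells, by 0.65 with siPDL1-1 (FDR = 1.4e-04) and by 0.62 with siPDL1-2 (FDR = 1.3e-04). *KEAP1* was called in none of the 4 comparisons, with log2 differences between -0.19 and 0.12.

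Both ferritin genes were among the decreases with siPDL1-2 in unstimulated cells, a comparison in which 1.33% of all genes tested were called lower and 4.84% higher. *FTH1*, the ferritin heavy chain, was at 2754 and 2710 CPM with siNC, 2175 and 2119 CPM with siPDL1-1 and 1221 and 1217 CPM with siPDL1-2 in unstimulated cells, and fell by 1.16 with siPDL1-2 (FDR = 1.3e-11). *FTL*, the ferritin light chain, fell by 0.61 (FDR = 1.4e-08). Both ferritin genes have many processed copies that could have shared reads. They were the 2 called of 8 heme and iron genes. Of 18 detoxication genes and other cited targets, 3 fell and 1 rose with siPDL1-2 in unstimulated cells. *TRIM16L* fell by 1.00 (FDR = 2.9e-09), whereas *ALDH3A1*, an aldehyde dehydrogenase, rose by 0.83 (FDR = 1.3e-05) and after IFNγ by 1.49 (FDR = 1.0e-07). *PRDX1*, a peroxiredoxin, fell by 0.61 (FDR = 1.5e-08) as the 1 called of 11 thioredoxin and peroxiredoxin genes, and *TKT*, an enzyme of the pentose phosphate pathway, fell by 0.61 (FDR = 5.2e-08) as the 1 called of 6 genes of NADPH supply.

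Among 22 genes of glutathione synthesis, use and export, of which 21 passed the filter, *ABCC2*, an export pump for conjugates, fell with both siRNAs in both conditions. Its decrease was 0.75 and 0.94 in unstimulated cells and 0.98 and 0.90 after IFNγ with siPDL1-1 and siPDL1-2. *ABCC3*, an export pump of the same family, rose with siPDL1-1 by 0.60 in unstimulated cells (FDR = 2.4e-07) and by 0.63 after IFNγ (FDR = 7.0e-08). *CHAC1*, which degrades glutathione, rose with siPDL1-2 after IFNγ by 0.66 (FDR = 6.1e-04). The 3 superoxide and peroxide enzymes that passed the filter included the mitochondrial superoxide dismutase *SOD2*. IFNγ raised it by 1.36 in siNC cells (FDR = 1.2e-12), and it was lower with siPDL1-1 by 0.76 in unstimulated cells (FDR = 1.2e-08) and by 0.91 after IFNγ (FDR = 5.7e-10), and with siPDL1-2 by 0.68 after IFNγ (FDR = 5.3e-08). Over the 7 lists, the median log2 difference with siPDL1-2 in unstimulated cells ranged from -0.26 (detoxication genes) to 0.081 (regulators), against 0.028 over all genes. Outside these lists, 1 of 9 ATF4-response genes rose in that comparison, where 4.84% of all genes were called higher. This was *PSAT1*, an enzyme of serine synthesis, which rose by 1.79 (FDR = 1.1e-12). It was also called higher with siPDL1-2 after IFNγ and with siPDL1-1 in both conditions.

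**Figure D4:**
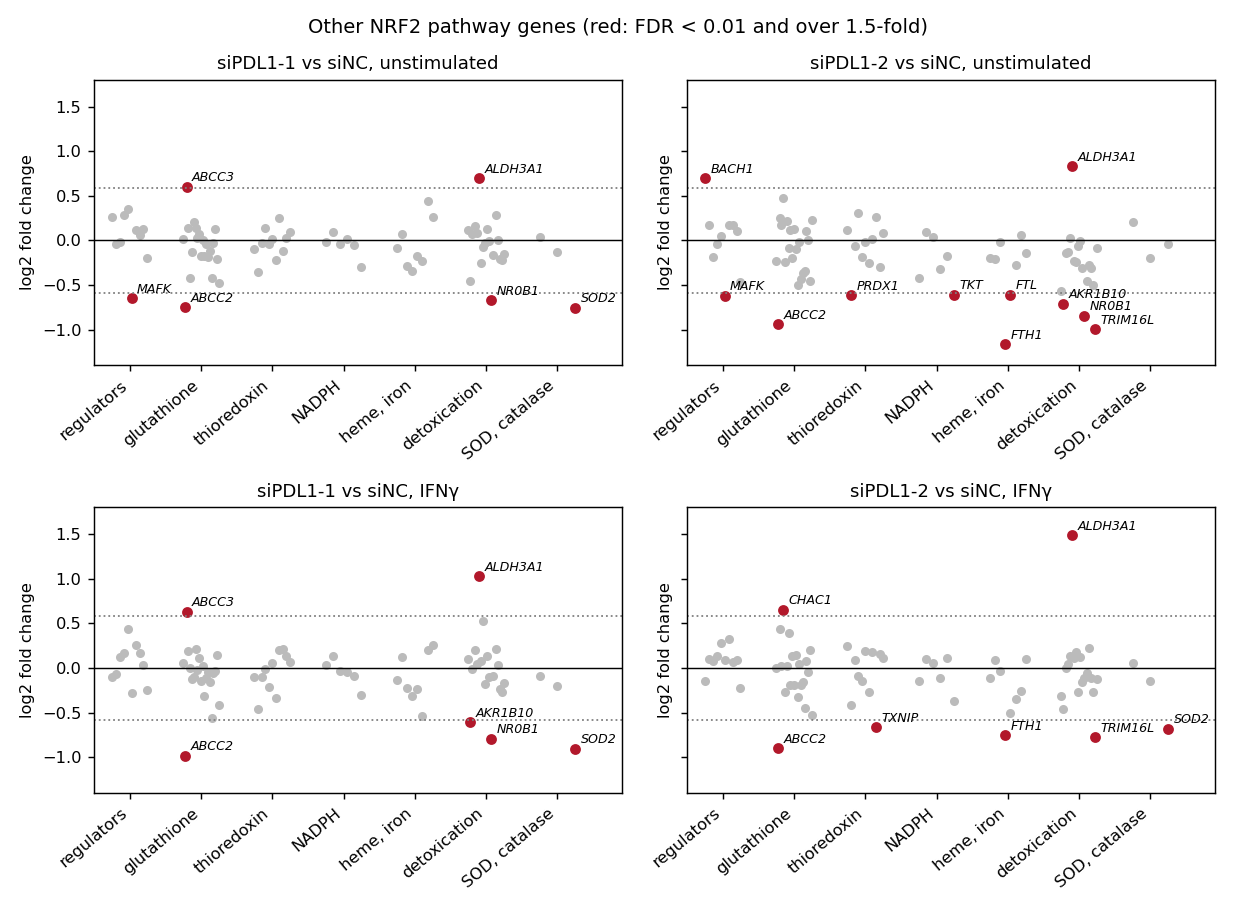
Log2 fold change against siNC (y axes) of the 77 further genes, by list (x axes), for each PD-L1 siRNA without and with IFNγ, with red points for genes past both thresholds. The superoxide dismutase and catalase genes lie outside the NRF2 core. In unstimulated siPDL1-2 cells 9 red points lie below 0 and 2 above, with *FTH1* lowest at -1.16.

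With IFNγ, 8 of these 77 genes were called higher and 5 lower in siNC cells, 8 and 4 in siPDL1-1 cells and 9 and 3 in siPDL1-2 cells. Over all genes tested, 6.67% were called higher and 1.45% lower in siNC cells, 5.58% and 1.30% in siPDL1-1 cells and 3.62% and 1.65% in siPDL1-2 cells. *BACH1* rose by 1.22 in siNC cells (FDR = 4.1e-08), from 15.0 and 15.5 to 35.6 and 38.0 CPM. *GLRX*, a glutaredoxin, rose by 1.09 (FDR = 6.5e-10). *NFE2L3*, a relative of *NFE2L2*, rose in siPDL1-1 cells by 0.88 (FDR = 3.1e-08), as did *TXNIP*, an inhibitor of thioredoxin, by 1.03 (FDR = 7.7e-13) and the carbonyl reductase *CBR3* by 1.31 (FDR = 2.3e-07). *GSTO1*, a glutathione transferase, rose by 0.90 in siPDL1-2 cells (FDR = 1.5e-09), as did the small MAF gene *MAFF* by 0.87 (FDR = 5.0e-05), whereas *SLC7A11*, the cystine importer, fell by 0.83 (FDR = 3.9e-04). The aldo-keto reductase *AKR1C1* fell by 1.06 in siPDL1-1 cells (FDR = 4.1e-09), but its near-identical paralog *AKR1C2* may share its reads. These genes are given for the siRNA with their largest change, and most were not particular to it. *GLRX*, *NFE2L3*, *CBR3*, *GSTO1* and *AKR1C1* were called in the same direction with every siRNA, siNC included. *BACH1* and *TXNIP* were called in siNC and siPDL1-1 cells, *MAFF* in siNC and siPDL1-2 cells, and *SLC7A11* in siPDL1-2 cells only.

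Over the 12 libraries, the levels of *GCLM* ran most closely with those of *RIOK3* (Pearson r = 0.977), *ZEB2* (0.973), *LSM12* (0.971), *ARRDC3* (0.968) and *STARD3NL* (0.967) among the 10257 genes averaging 10 CPM or more. Among the genes that ran most closely opposite were *SLC25A35* (-0.966), *RNF187* (-0.960), *NFE2L1* (-0.956) and *SLC1A4* (-0.951). Among the 9 genes themselves, *GCLM* ran with *TXN* (0.903) and *GCLC* (0.838), less with *NQO1* (0.439) and *SRXN1* (0.433). *TXNRD1*, *SRXN1* and *NQO1* ran together (0.932 to 0.954), and *HMOX1* ran opposite to *NFE2L2* (-0.875). These coefficients describe 12 libraries that share 6 conditions and are given without a test.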

How the data were processed

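RNA-seq values of 12 U251 libraries in 6 groups of 2 were used, with groups taken from the sample labels. After trimming, the authors used CLC Genomics Workbench to map to GRCh38 (Ensembl genes) and to count without regard to strand. The deposited signal values are their normalized CPM, whose column totals were 0.965 to 1.042 times that of plain CPM. These ratios were 0.965 to 0.980 in unstimulated and 1.003 to 1.042 in IFNγ-treated libraries, so the scaling differed with stimulation. All values (100%) corresponded to whole reads within a tolerance of 0.1 reads, and the filter and the count tests used these reads. The sample labels name a column extraction kit and a stranded library kit, whereas the study's methods name another extraction.

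Values were analysed on the log2(CPM + 1) scale with limma 3.58.1 (trend and robust), all 12 libraries as 6 groups, so fold changes of low genes are understated. Genes were kept with filterByExpr (minimum count 10, minimum total count 15), leaving 17982 of 45416, and FDR values are Benjamini-Hochberg over these in each of 11 comparisons. The members and lists were chosen with earlier results of these data known, among them that a list of reactive oxygen species genes was lower with each siRNA after IFNγ. Named genes are the 9 members, *CD274*, up to 4 called genes of each list with the largest changes, the 5 genes most and the 5 least correlated with *GCLM* (1 of which is not reported here), and genes overlapping a member. *KEAP1*, *ABCC3* and *AKR1C2*, and further comparisons of listed genes, were added after their values were seen. Alternatives were DESeq2 1.42.0 size factors and Wald test, edgeR 4.0.16 quasi-likelihood test, a pseudocount of 0.1, no filter, a replicate block, fits within 1 stimulation or siRNA, leaving out each library, and other thresholds. Promoters are from RefSeq. The scripts were tested on simulated data. R 4.3.3, Python 3.11.15, numpy 2.4.6, pandas 2.3.3 and matplotlib 3.10.9 were used.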

Additional observations from a re-analysis of the deposited data

Results flagged for a closer look

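The difference between siPDL1-2 and siNC in *HMOX1* depended on IFNγ, with an interaction of 0.70 on the log2 scale (FDR = 2.0e-04, limma). The log2 difference was -1.42 in unstimulated cells and -0.72 after IFNγ. The siNC level went from 50.5 and 51.2 CPM to 35.6 and 32.7 CPM with IFNγ, whereas the siPDL1-2 level went from 18.2 and 18.5 CPM to 19.4 and 21.2 CPM. *BACH1*, which encodes a known repressor of *HMOX1*, had an interaction of -0.85 (FDR = 2.2e-04, limma). In unstimulated cells it was at 15.0 and 15.5 CPM with siNC and 25.2 and 25.5 CPM with siPDL1-2. After IFNγ the values were 35.6 and 38.0 CPM with siNC and 34.4 and 31.9 CPM with siPDL1-2. Of the 77 further genes, 4 were called higher and 4 lower for this interaction, against 1.84% and 5.78% of all genes. The part of *BACH1* in the *HMOX1* values was not tested.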

How the results depend on the processing

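Across the alternatives, 1112 values of single genes counted as unchanged. Tested values among them kept their direction and their side of the thresholds, and untested *GCLM* values moved by less than the spread within groups. A call was gained in 7 values and lost in 3, and 2 untested *GCLM* values moved farther. Of the counts of called members, 132 stayed within 1.5 times. The counts moved as follows. With the FDR alone they were 8 (siPDL1-2) and 5 (siPDL1-1 against siPDL1-2) in unstimulated cells, 8 (siPDL1-1), 6 (siPDL1-2) and 2 (siPDL1-1 against siPDL1-2) after IFNγ, 6, 3 and 4 for IFNγ in siNC, siPDL1-1 and siPDL1-2, and 3 for the siPDL1-2 interaction. For siPDL1-1 after IFNγ, the count was 1 with DESeq2's size factors and Wald test, under which *NQO1* was at -0.58 and missed 1.5-fold. For IFNγ in siNC, it was 2 with DESeq2's size factors, its Wald test and edgeR's quasi-likelihood test, under which *HMOX1* passed at -0.60, -0.61 and -0.60.

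Leaving out 1 library gave 1 to 2 members for siPDL1-1 in unstimulated cells (*NQO1* -0.58 without siPDL1-1 replicate 1), 2 to 3 for siPDL1-1 after IFNγ (*GCLM* -0.62 without siPDL1-1 replicate 2, *TXNRD1* -0.59 without siNC replicate 1), 1 to 2 for IFNγ in siNC (*HMOX1* -0.62 without the IFNγ-treated siNC replicate 1) and 0 to 1 for IFNγ in siPDL1-1 (*GCLM* 0.66 without the IFNγ-treated siPDL1-1 replicate 1). *GCLM* between the siRNAs after IFNγ was 0.57 and 0.27 without siPDL1-1 replicate 1 or 2. A lone library was assumed to vary like the others.

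Signs turned in 19 values, all near 0 and not called. With DESeq2's size factors, edgeR and DESeq2's Wald test, *NFE2L2* with siPDL1-1 in unstimulated cells was -0.021, -0.034 and -0.021, *GSR* for IFNγ in siNC -0.014, -0.0032 and -0.012, and the siPDL1-1 interaction of *TXNRD1* 0.0011, 0.00084 and 0.00034. Leaving out 1 library gave the following ranges. *NFE2L2* was -0.00063 to 0.0074 with siPDL1-1 in unstimulated cells, -0.0035 to 0.078 with siPDL1-2 after IFNγ and -0.075 to 0.042 for IFNγ in siPDL1-2, where 1 further library gave 0.0063. *GSR* for IFNγ in siNC was -0.0079 to 0.050. *GCLC* was -0.10 to 0.080 between the siRNAs after IFNγ and -0.068 to 0.12 for IFNγ in siPDL1-1. The siPDL1-1 interaction was -0.014 to 0.049 for *NQO1* and -0.029 to 0.082 for *SRXN1*, and the siPDL1-2 interaction of *TXN* was -0.015 to 0.083. The cause was not tested.

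The replicate block, with replicate number added to the groups, gave 2, 4, 1, 2, 3 and 1 called members in the 6 comparisons between siRNAs, 1, 0 and 0 for IFNγ and 0 and 1 for the interactions, as without it. Same-numbered libraries did not deviate together, with correlations between -0.13 and 0.19 over 15 pairs of groups, so the numbers were not taken to pair the libraries.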
